A study of Mus musculus with 6 samples.

Results

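The genes described here are 38 rows of an RNA sequencing table of 38926 genes: the enzymes of glycolysis, the carriers of glucose and lactate, the control of pyruvate dehydrogenase, and the hypoxia-inducible factor (HIF) with genes it is known to induce. They were chosen by name from textbook pathways, with earlier results of these data known, and 38 of 38 names were found in the table. Shares of these genes set beside those of all genes are therefore only descriptive. The cells were LSK cells of mice: marrow cells without lineage markers that carry Sca-1 and Kit, a gate that contains blood stem cells and multipotent progenitors. They were sorted from whole femur and tibia after collagenase digestion. Wild-type C57BL/6 mice aged 8 to 12 weeks received haloperidol, an antipsychotic that blocks dopamine receptors, or the solvent DMSO on 3 days in a row, and drug or solvent was also present while the cells were sorted. Each group had 3 libraries. The labels used here give no dose, no sort date and no link between libraries and animals. The p-values therefore reflect only how these libraries vary, and that variation may be technical. A batch that followed the treatment cannot be told apart from it.

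Glycolysis breaks glucose down to pyruvate in the cytosol and yields ATP without oxygen. Lactate dehydrogenase turns the pyruvate to lactate, or pyruvate dehydrogenase passes it into the mitochondria. The pyruvate dehydrogenase kinases shut that second route. HIF is a pair of proteins, an alpha subunit that is destroyed when oxygen is plentiful and the stable partner ARNT. The EGLN prolyl hydroxylases mark the alpha subunit for VHL, which has it degraded, and HIF in turn induces Egln1 and Egln3, a negative feedback. HIF is also known to induce most glycolytic enzymes. Blood stem cells live in a marrow of low oxygen tension and are known for high glycolysis and HIF1A activity. HIF protein is set largely by its stability, so transcript levels give no measure of it.

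Promoter windows from RefSeq (GRCm38.p6, 250 bases before to 50 bases after a transcription start) were found for 35 of the 38 genes. They were searched on both strands for the core of the hypoxia response element, spelled ACGTG or GCGTG. The first of these also lies inside the E-box CACGTG. The windows of 3 genes that rose with haloperidol and 3 that fell are shown because all 6 genes are known HIF targets and moved in opposite directions. Capitals mark a core on either strand, and the sequences run 5′ to 3′ along the gene's own strand. The windows lie at chr7:46845554-46845853 (Ldha, plus strand), chrX:106186850-106187149 (Pgk1, plus), chr2:71872974-71873273 (Pdk1, plus), chr12:54203825-54204124 (Egln3, minus), chr10:59323046-59323345 (P4ha1, plus) and chr17:46032328-46032627 (Vegfa, minus).
Ldha: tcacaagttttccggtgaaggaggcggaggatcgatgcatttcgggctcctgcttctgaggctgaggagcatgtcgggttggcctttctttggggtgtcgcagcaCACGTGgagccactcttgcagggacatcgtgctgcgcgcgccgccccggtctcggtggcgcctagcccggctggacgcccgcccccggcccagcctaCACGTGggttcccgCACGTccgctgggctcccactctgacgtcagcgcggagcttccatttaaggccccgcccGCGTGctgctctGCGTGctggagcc
Pgk1: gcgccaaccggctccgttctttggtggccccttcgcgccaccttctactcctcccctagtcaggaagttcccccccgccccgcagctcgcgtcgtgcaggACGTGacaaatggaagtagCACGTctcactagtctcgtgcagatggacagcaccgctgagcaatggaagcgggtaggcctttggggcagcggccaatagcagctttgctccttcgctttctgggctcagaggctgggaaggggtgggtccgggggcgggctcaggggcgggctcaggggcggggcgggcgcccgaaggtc
Pdk1: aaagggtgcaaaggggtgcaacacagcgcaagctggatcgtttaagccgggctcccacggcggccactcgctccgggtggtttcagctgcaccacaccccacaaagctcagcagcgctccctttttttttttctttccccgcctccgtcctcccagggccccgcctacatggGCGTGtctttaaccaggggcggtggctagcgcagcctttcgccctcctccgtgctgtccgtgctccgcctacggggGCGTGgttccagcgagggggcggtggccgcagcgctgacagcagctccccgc
Egln3: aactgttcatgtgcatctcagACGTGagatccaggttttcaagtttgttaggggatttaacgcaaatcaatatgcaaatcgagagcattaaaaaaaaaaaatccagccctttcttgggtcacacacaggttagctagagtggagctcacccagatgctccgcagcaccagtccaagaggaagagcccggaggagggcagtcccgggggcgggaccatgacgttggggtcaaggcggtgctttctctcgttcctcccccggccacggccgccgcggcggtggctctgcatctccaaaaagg
P4ha1: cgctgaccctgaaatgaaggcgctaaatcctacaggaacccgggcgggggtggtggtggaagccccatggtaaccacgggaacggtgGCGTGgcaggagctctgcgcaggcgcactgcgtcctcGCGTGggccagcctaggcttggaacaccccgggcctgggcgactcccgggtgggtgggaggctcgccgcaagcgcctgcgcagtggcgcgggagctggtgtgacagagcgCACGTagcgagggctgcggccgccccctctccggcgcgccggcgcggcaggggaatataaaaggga
Vegfa: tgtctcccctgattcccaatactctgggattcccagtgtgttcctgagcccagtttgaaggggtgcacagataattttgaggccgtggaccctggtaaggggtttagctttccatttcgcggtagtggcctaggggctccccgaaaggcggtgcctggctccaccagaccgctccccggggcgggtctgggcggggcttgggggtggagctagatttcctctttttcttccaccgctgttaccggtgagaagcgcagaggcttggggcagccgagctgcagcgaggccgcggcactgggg

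The Ldha window held 5 matches to ACGTG, of which 4 were the strands of 2 E-boxes, and 2 matches to GCGTG. The Pgk1 window held 2 matches to ACGTG, whose first bases lay at -150 and -131 from the start. The Pdk1 window held 2 matches to GCGTG, at -78 and -2. All 3 windows shown for genes that rose held a core. A second Ldha window held 2 matches to GCGTG and 0 to ACGTG, and a second Pdk1 window held 0 of either. Among the genes that fell, Egln3 held 1 match at -229 and P4ha1 held 3, while the Vegfa window shown held 0. A second Vegfa start in RefSeq had 1 match to each spelling. Its window (chr17:46025114-46025413) lies inside the bounds of the gene, so these letters need not be promoter sequence. At least 1 core stood in a window of 9 of the 10 genes that rose, 4 of the 4 that fell and 18 of the 20 that did not pass the test. For Vegfa that count rests on the second window alone. Cores were thus found among genes of all 3 outcomes. A core was present for 46.7% of all 27025 genes with promoter windows. ACGTG was found for 23 of the 35 genes and 21.8% of all, GCGTG for 25 and 35.2%, and CACGTG for 7 and 8.09%. The windows of these genes were richer in G and C, with a median of 64.5% against 52.7% for all windows. A match describes letters only and shows no binding.

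**Figure D1:**
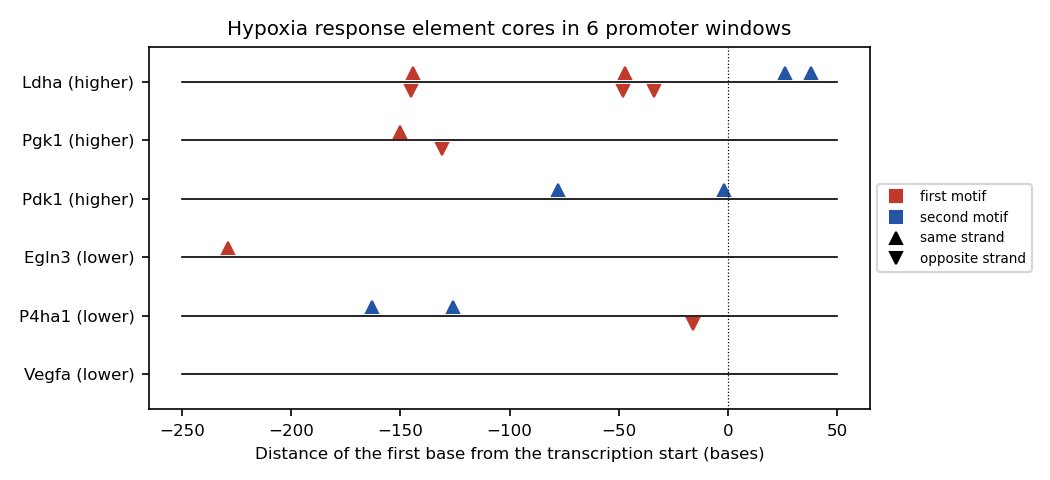
Positions of the hypoxia response element cores in the 6 promoter windows, as distance in bases from the transcription start (x axis), one gene per line, red for the spelling that starts with A and blue for the one with G. Upward triangles are on the gene's own strand and downward ones on the other; Ldha holds 7 matches and the Vegfa window holds 0.

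The table holds FPKM, a count of fragments scaled to gene length and library size. Levels can be compared between genes only as far as those lengths fit the transcripts present, and the annotation behind them is not given. Differences are on the log2(FPKM + 1) scale, which understates changes of low genes. They were tested with limma, and a gene was called when its p adjusted over all tested genes was below 0.05. The 6 libraries held between 8523556 and 8969045 reads. Of the 38 genes, 36 had a mean of at least 1 FPKM and were tested. Haloperidol raised 10 of them and lowered 4, so 38.9% were called, beside 24.5% of all 11436 genes tested. The share that rose was 10 of 36 beside 11.5% of all genes, and the share that fell was 4 of 36 beside 13.0%. Their median log2 difference was 0.04, with a range from -0.87 to 0.71, and that of all genes was 0.002. The groups did not overlap for 21 of the 36 genes, 13 with haloperidol above and 8 with it below, beside 43.1% of all genes (21.0% above and 22.1% below).

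**Figure D2:**
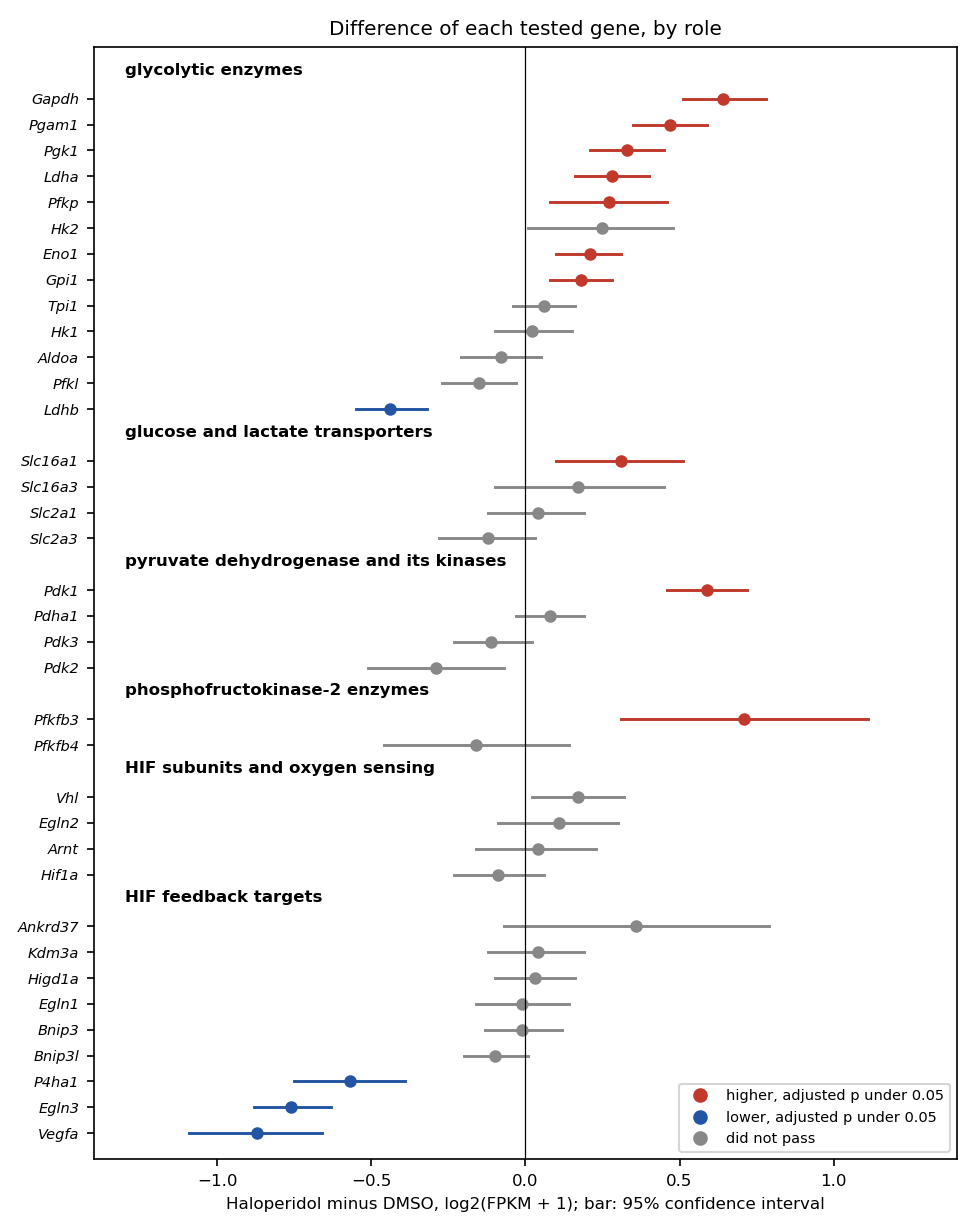
Difference between haloperidol and DMSO on the log2(FPKM + 1) scale (x axis) for the 36 tested genes, grouped by role, with bars for the 95% confidence interval and Egln1 and Egln3 drawn among the HIF feedback targets. Most enzymes sit to the right of 0, and the 3 lowest points are P4ha1, Egln3 and Vegfa.

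Of 13 glycolytic enzyme genes, all tested, 7 rose, 1 fell and 5 did not pass, beside 11.5% higher and 13.0% lower among all genes. Their median log2 difference was 0.21. The count that rose was 5 or 6 when any 1 library was left out, and 6 with a pseudocount of 5, with low genes kept in the test or with scaling to a common sum. The rises were modest, between 13.3% for Gpi1 and 59.8% for Gapdh. The 3 highest log2 differences among the enzymes were those of Gapdh, Pgk1 and Pgam1, which carry out successive steps after the sugar is split.

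Hexokinase traps glucose in the cell as glucose 6-phosphate. Hk1, the more abundant hexokinase gene of this pair, was at 34.9, 37.2 and 37.7 FPKM in the DMSO libraries and 36.4, 38.7 and 36.5 FPKM in the haloperidol libraries. The groups overlapped, and the log2 difference was 0.02 (95% confidence interval -0.10 to 0.15). Hk2, the inducible isoform, lay at 6.06 to 6.6 FPKM in DMSO and 6.82 to 9.16 FPKM in haloperidol. Its haloperidol libraries were all higher, but it did not pass (adjusted p = 0.12). Hk3, a hexokinase gene outside the 38, was about as abundant as Hk1, at 35.8 ± 1.51 and 43.1 ± 6.74 FPKM. Its groups overlapped (log2 difference 0.25, adjusted p = 0.103), and it is not part of the Hk2 share given below. Gpi1 converts glucose 6-phosphate to fructose 6-phosphate. DMSO libraries had 111.5, 115.0 and 109.1 FPKM of it and haloperidol libraries 126.1, 128.7 and 125.3 FPKM, all higher. It rose from 111.9 ± 2.99 to 126.7 ± 1.76 FPKM (mean ± SD, n = 3 each, log2 difference 0.18, adjusted p = 0.0208). The call for Gpi1 ended without any 1 of DMSO replicate 1 (adjusted p = 0.0546), DMSO replicate 3 (0.062), haloperidol replicate 1 (0.0567) or haloperidol replicate 2 (0.0662).

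Phosphofructokinase commits the sugar to glycolysis. Its liver-type gene Pfkl measured 84.3, 84.3 and 84.4 FPKM in the DMSO libraries and 72.4, 80.8 and 75.3 FPKM in those of haloperidol (adjusted p = 0.0764). The platelet-type gene Pfkp stood at 7.79, 8.37 and 9.28 FPKM with DMSO and at 10.5, 9.67 and 11.1 FPKM with haloperidol, a log2 difference of 0.27 (SE 0.08, adjusted p = 0.0484). Both genes separated the groups, in opposite directions, and Pfkl was the more abundant of them in every library. The muscle-type gene Pfkm was at 23.0 ± 1.61 and 19.5 ± 1.64 FPKM (adjusted p = 0.0651). Pfkp made up 7.32% ± 0.655 of the summed FPKM of all 3 genes in DMSO and 9.85% ± 1.04 in haloperidol (exact two-sided permutation p = 0.1, the smallest possible). The Pfkp call sat at the threshold. It ended with a pseudocount of 5 (adjusted p = 0.0504), low genes kept in the test (0.101), scaling to a common sum (0.0611), and without any 1 library other than DMSO replicate 3 (0.0538 to 0.132). Pfkp also shares 748 exonic bases with Pitrm1 on the opposite strand, and the library kit keeps no strand, so reads there cannot be assigned to either gene with certainty.

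Aldolase A and triose phosphate isomerase were the next steps and did not pass. Aldoa had 285 ± 14.2 FPKM under DMSO and 270 ± 14.1 FPKM under haloperidol, a log2 difference of -0.08 (interval -0.21 to 0.05). Tpi1 was at 302 ± 10.4 and 315 ± 2.72 FPKM (interval -0.04 to 0.16). The groups of both genes overlapped.

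Gapdh (chr6:125161715-125166467, minus strand, gene bounds from GENCODE M21 on GRCm38) encodes glyceraldehyde 3-phosphate dehydrogenase and is often used as a reference gene. It measured 16.0, 16.2 and 16.9 FPKM in the DMSO libraries and 26.6, 27.1 and 24.8 FPKM in those of haloperidol. Every haloperidol library was above every DMSO library. The log2 difference was 0.64 (SE 0.06, adjusted p = 0.000273), the largest among the enzymes. Aldoa and Tpi1, which act just before it, had at least 253.6 FPKM in all 6 libraries. Gapdh had 361 to 617 reads per library. GENCODE M21 holds 78 other genes with a transcript that matches the Gapdh transcript at 95% identity or more over at least 200 bases, of which 70 were rows of the table. Summed, those 70 rows held 3944 to 5952 reads per library, several times the reads of Gapdh itself.

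The summed reads of the copies were also higher in every haloperidol library. Divided by library size factors, their summed reads were 4301, 4108 and 3844 in DMSO and 5919, 5887 and 5759 in haloperidol, a ratio of means of 1.43. Gapdh alone gave a ratio of 1.6, and both together 1.45. The group sums did not overlap. The exact two-sided permutation p was 0.1, the smallest that 3 against 3 libraries allow. The row with the most reads was the processed pseudogene Gm12033, with 2474 to 2664 reads in DMSO and 3608 to 3736 in haloperidol. How reads were split between Gapdh and its copies is uncertain, and so is the level of Gapdh.

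**Figure D3:**
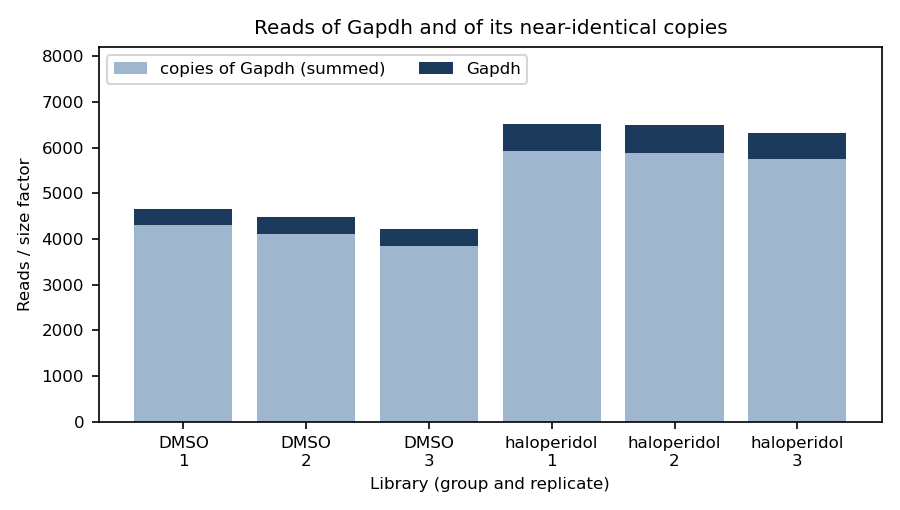
Reads divided by the library's size factor (y axis) for Gapdh (dark) stacked on the sum of its 70 near-identical copies (light), one bar per library. The copies hold most of the reads in every library, and the stacked total lies between 4225 and 4661 in DMSO and between 6318 and 6518 in haloperidol.

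Pgk1, phosphoglycerate kinase, makes the first ATP of the pathway's second part. It stood at 75.5, 74.7 and 70.1 FPKM with DMSO and at 89.5, 96.5 and 92.4 FPKM with haloperidol, a log2 difference of 0.33 (SE 0.05, adjusted p = 0.00297). Pgam1, phosphoglycerate mutase, had 59.5, 65.8 and 63.5 FPKM under DMSO and 87.8, 87.1 and 87.7 FPKM under haloperidol. Its difference was 0.47 (SE 0.05, adjusted p = 0.000554). Both genes separated the groups with no overlap. For Pgam1, 1 near-identical pseudogene in the table held 29 to 44 reads per library against 972 to 1430 for the gene itself. Eno1, enolase, had 126.5, 122.4 and 125.6 FPKM in DMSO and 140.0, 144.9 and 147.5 FPKM in haloperidol. It rose from 124.9 ± 2.14 to 144.1 ± 3.82 FPKM (log2 difference 0.21, adjusted p = 0.0122). That call ended without DMSO replicate 2 (adjusted p = 0.0549).

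The lactate dehydrogenase subunits went apart. Ldha (chr7:46841475-46855627, plus strand) encodes the subunit that favours making lactate and had the highest level of all 38 genes. It measured 548.5, 567.4 and 552.2 FPKM in the DMSO libraries and 638.6, 668.3 and 719.2 FPKM in those of haloperidol, a log2 difference of 0.28 (SE 0.05, adjusted p = 0.00741). Ldhb (chr6:142490249-142507957, minus strand) encodes the subunit that favours turning lactate back to pyruvate. It stood at 81.1, 83.7 and 86.5 FPKM with DMSO and at 61.4, 59.8 and 63.6 FPKM with haloperidol, a difference of -0.44 (SE 0.05, adjusted p = 0.000673). The groups of each gene did not overlap. Ldhb made up 12.9%, 12.9% and 13.5% of the summed FPKM of both genes in DMSO and 8.78%, 8.22% and 8.12% in haloperidol. The exact two-sided permutation p of that share was 0.1, the smallest that 3 against 3 libraries allow.

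Transport of glucose did not pass the test, while 1 of 2 lactate carriers did. Slc2a1, the widespread glucose transporter GLUT1, had 32.2, 32.2 and 34.6 FPKM under DMSO and 35.9, 30.8 and 34.9 FPKM under haloperidol (log2 difference 0.04, interval -0.12 to 0.19). Slc2a3, the high-affinity transporter GLUT3, was at a similar FPKM, with 32.4 ± 0.937 and 29.8 ± 2.51 FPKM (interval -0.28 to 0.03). That rests on the lengths used: Slc2a3 had 1714 to 2189 reads over 7245 bases and Slc2a1 had 782 to 891 over 2853. Neither separated the groups. Slc16a1, the monocarboxylate transporter MCT1, measured 22.7, 28.2 and 26.0 FPKM in the DMSO libraries and 31.5, 34.9 and 29.4 FPKM in those of haloperidol, a log2 difference of 0.31 (SE 0.09, adjusted p = 0.0391). The gap between its groups was narrow. The call ended with low genes kept in the test (adjusted p = 0.104), with scaling to a common sum (0.0664), and without DMSO replicate 1 (0.103), DMSO replicate 3 (0.0819), haloperidol replicate 1 (0.087) or haloperidol replicate 2 (0.115). Slc16a3, the lactate exporter MCT4, was low, at 2.95 ± 0.204 and 3.48 ± 0.626 FPKM (adjusted p = 0.328).

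Control of pyruvate dehydrogenase changed in 1 kinase. Pdk1 (chr2:71873224-71903858, plus strand), a kinase known as a HIF target, stood at 18.8, 20.2 and 20.3 FPKM with DMSO and at 31.4, 29.8 and 29.8 FPKM with haloperidol. The groups lay far apart against their spread. The log2 difference was 0.59 (SE 0.06, adjusted p = 0.000339). The other kinases pointed the opposite way without passing. Pdk3, the most abundant of the family here, had 59.1, 60.1 and 65.6 FPKM under DMSO and 57.7, 56.8 and 56.8 FPKM under haloperidol (adjusted p = 0.189). Pdk2 was at 14.3 ± 1.38 and 11.5 ± 1.24 FPKM (adjusted p = 0.0564) and passed under 3 of 17 other settings: a filter at 5 FPKM (0.0374), a robust prior variance (0.0471) and voom on recovered reads (0.0271). Pdk1 thus made up 20.7% ± 0.83 of the summed FPKM of the 3 kinases in DMSO and 30.6% ± 0.346 in haloperidol, with an exact two-sided permutation p of 0.1, the smallest possible. Pdha1, the catalytic subunit of the dehydrogenase itself, was at 51.1 ± 0.552 and 54.0 ± 1.86 FPKM (interval of the log2 difference -0.03 to 0.19).

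Pfkfb3 makes fructose 2,6-bisphosphate, the activator of phosphofructokinase. It measured 3.49, 3.36 and 2.46 FPKM in the DMSO libraries and 4.75, 4.93 and 7.76 FPKM in those of haloperidol, a log2 difference of 0.71 (SE 0.18, adjusted p = 0.0201). Haloperidol replicate 3 stood above the other libraries. The call for this low gene ended once low genes were kept (adjusted p = 0.0772) and without DMSO replicate 3 (0.0665), and without haloperidol replicate 3 the log2 difference was 0.52 (0.0378). Its relative Pfkfb4 had 3.17, 3.55 and 4.32 FPKM in DMSO and 2.88, 3.84 and 2.87 FPKM in haloperidol. Those groups overlapped (adjusted p = 0.415).

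**Figure D4:**
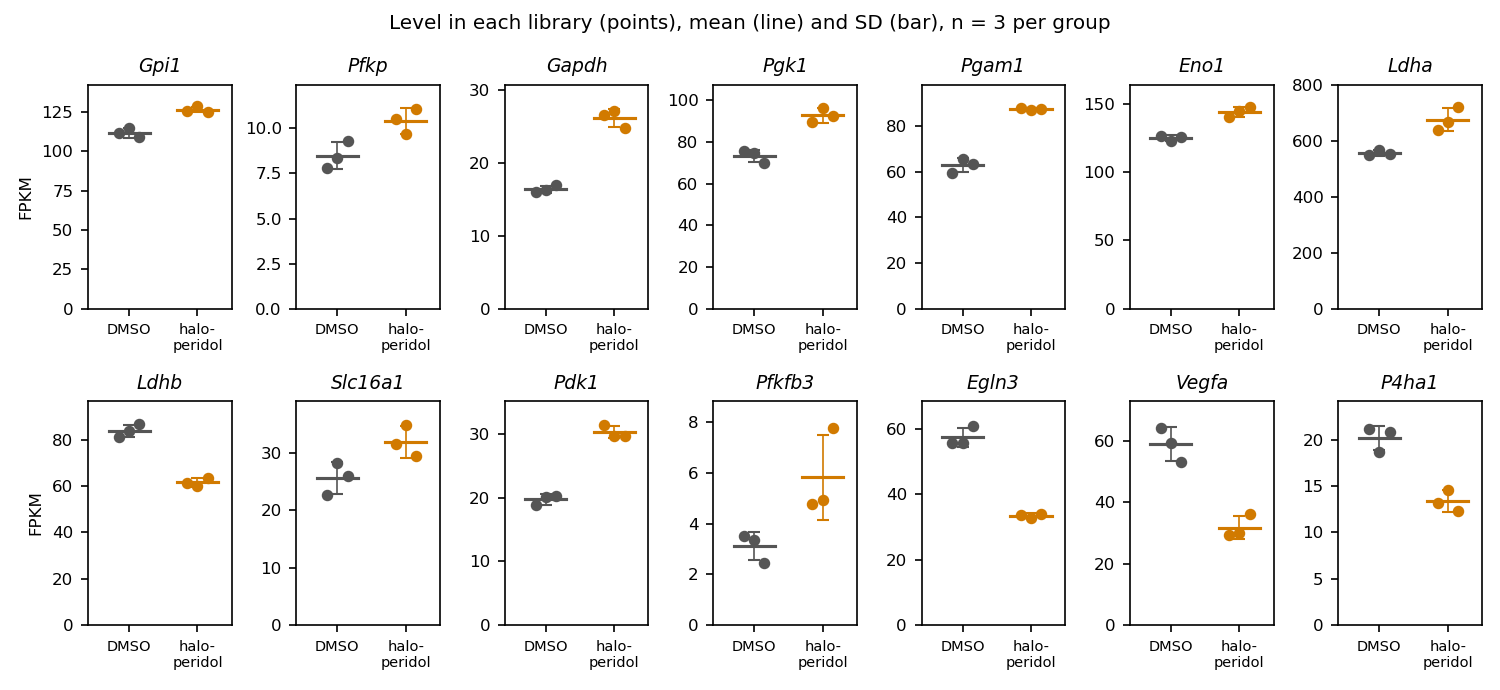
FPKM (y axis, from 0) of the 14 genes that passed the test, in each of the 3 DMSO (grey) and 3 haloperidol (orange) libraries, with the mean as a line and the SD as a bar. Ldhb, Egln3, Vegfa and P4ha1 are lower in every haloperidol library, and the other 10 genes are higher in every one.

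Among the genes of HIF and its oxygen sensors only Egln3 passed the test. Of 7 genes, 6 were tested, 0 rose and 1 fell, or 16.7% called beside 24.5% of all genes. Hif1a, the alpha subunit, stood at 16.9, 19.1 and 18.2 FPKM with DMSO and at 16.9, 17 and 16.8 FPKM with haloperidol, a log2 difference of -0.09 (interval -0.23 to 0.06). Its partner Arnt was at 5.56 ± 0.494 and 5.72 ± 0.185 FPKM (interval -0.16 to 0.23). Epas1, the other alpha subunit gene, had 1 to 6 reads per library and was not tested. Vhl, which recognises the hydroxylated alpha subunit, was at 16.7 ± 0.48 and 18.9 ± 1.35 FPKM (adjusted p = 0.0995). Egln2, the hydroxylase that HIF is not known to induce, was at 23.2 ± 2.13 and 25.1 ± 2.1 FPKM (adjusted p = 0.388).

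Among genes of the HIF feedback group, all known HIF targets outside glycolysis, 0 rose and 3 fell. The group does not hold all such targets: Pdk1, which rose, was placed with pyruvate dehydrogenase, so these counts depend on the grouping. Of its genes, only Egln1 and Egln3 belong to the negative feedback described above. Both are also counted with the oxygen sensors, so the fall of Egln3 enters both counts. The feedback group had 10 genes and 9 were tested, so 33.3% were called beside 24.5% of all genes (13.0% lower). Its median log2 difference was -0.01, against 0.21 for the enzymes. The falls were the largest differences of all 36 genes on the lower side, and the other 6 genes did not pass.

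Egln3 (chr12:54178981-54203860, minus strand), the hydroxylase PHD3, was the most abundant of the 3 Egln genes in DMSO. It had 55.6, 55.5 and 60.8 FPKM under DMSO and 33.7, 32.6 and 34.0 FPKM under haloperidol. All haloperidol libraries lay far below all DMSO libraries. The log2 difference was -0.76 (SE 0.06, adjusted p = 9.13e-05). Egln1, the hydroxylase PHD2 and the main regulator of HIF1A in most cells, measured 19.7, 17.4 and 17.5 FPKM in the DMSO libraries and 17.7, 18.0 and 18.5 FPKM in those of haloperidol (interval -0.16 to 0.14). Egln3 went from 58.0% ± 1.22 of the summed FPKM of Egln1, Egln2 and Egln3 in DMSO to 43.7% ± 1.64 in haloperidol. For that share the exact two-sided permutation p was 0.1, again the smallest possible.

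Of 7 such shares computed, 5 separated the groups, each with an exact permutation p of 0.1 (0.14 adjusted over the 7). Each of these 5 is the share of a called gene, so it restates values given for that gene. Among all tested genes, the groups did not overlap for 43.1%. Hk2 made up 14.9% ± 1.02 of the sum of Hk1 and Hk2 in DMSO and 17.4% ± 2.54 in haloperidol, and its groups overlapped (exact permutation p = 0.3). Slc2a1 made up 50.4% ± 0.366 and 53.2% ± 4.08 of the sum of Slc2a1 and Slc2a3, again with overlap (exact permutation p = 0.4). Pfkfb3 made up 45.8% ± 8.41 and 63.8% ± 8.52 of the sum of Pfkfb3 and Pfkfb4.

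**Figure D5:**
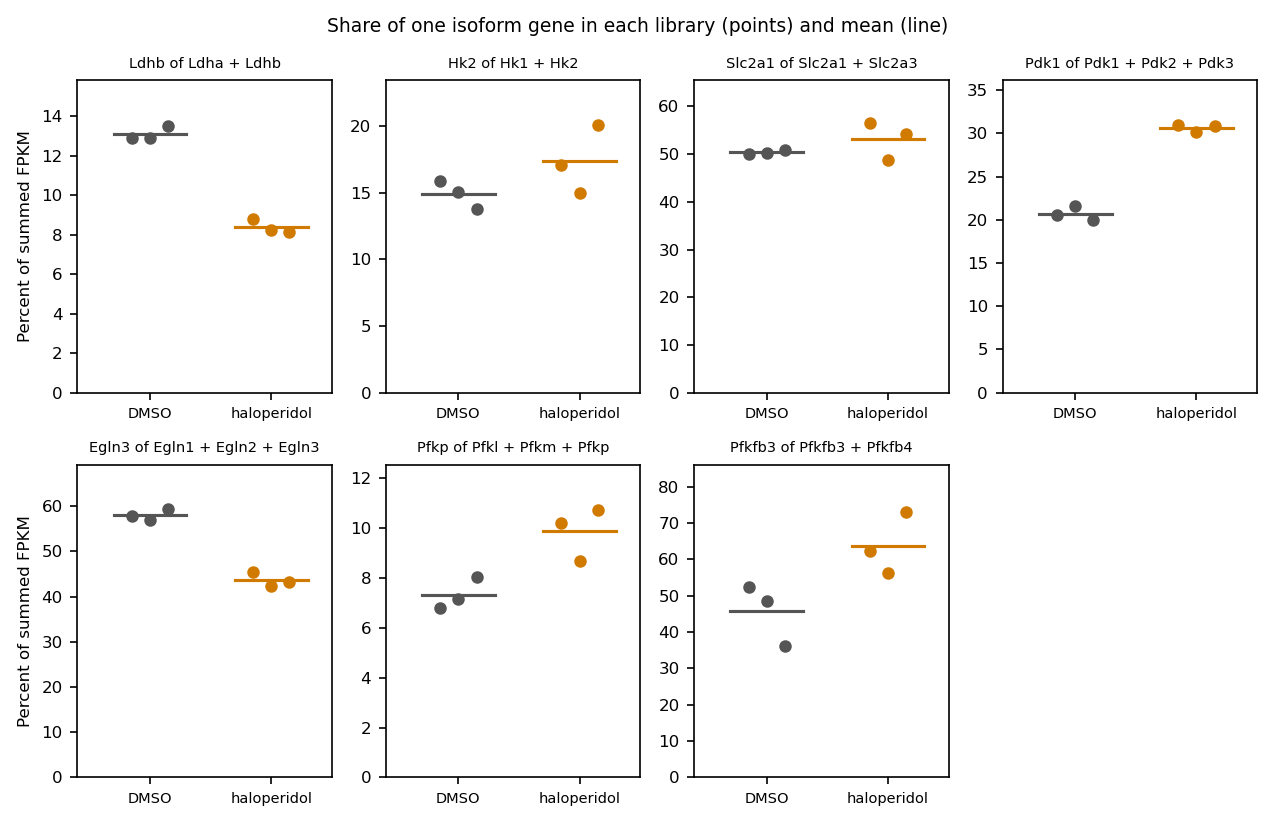
Share of 1 gene in the summed FPKM of the genes named above each panel (y axis, percent, from 0) in each DMSO (grey) and haloperidol (orange) library, with the mean as a line. Ldhb and Egln3 have lower shares in all 3 haloperidol libraries, Pfkp, Pdk1 and Pfkfb3 have higher ones, and the groups overlap for Hk2 and Slc2a1.

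Vegfa (chr17:46016993-46032369, minus strand), the vascular endothelial growth factor, showed the largest fall. It stood at 64.4, 59.5 and 53.3 FPKM with DMSO and at 29.3, 29.9 and 36.2 FPKM with haloperidol, a log2 difference of -0.87 (SE 0.09, adjusted p = 0.000554). P4ha1 (chr10:59323296-59373304, plus strand), a collagen prolyl hydroxylase, had 21.1, 18.7 and 20.8 FPKM under DMSO and 13.2, 14.6 and 12.3 FPKM under haloperidol, a difference of -0.57 (SE 0.08, adjusted p = 0.00176). Neither gene's groups overlapped. The related P4ha2 had 13, 10 and 10 reads in the DMSO libraries and 3, 7 and 8 in the haloperidol libraries and was not tested.

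The remaining genes of this group did not pass. Bnip3, a mitophagy receptor, measured 28.3, 28.5 and 28 FPKM in the DMSO libraries and 27.5, 27.4 and 29.5 FPKM in those of haloperidol (interval -0.13 to 0.12). Its relative Bnip3l, which clears mitochondria in maturing red cells, stood at 55.0, 54.4 and 53.0 FPKM with DMSO and at 49.7, 50.4 and 51.9 FPKM with haloperidol (interval -0.20 to 0.01). The groups of Bnip3l did not overlap, though it did not pass (adjusted p = 0.175). Kdm3a, a histone demethylase, was at 12.0, 12.8 and 12.9 FPKM and 13.4, 13.4 and 12.1 FPKM (interval -0.12 to 0.19). Higd1a, a mitochondrial protein, was at 37.0, 37.1 and 37.6 FPKM and 35.7, 39.2 and 39.6 FPKM (interval -0.10 to 0.16). Both overlapped between groups. Ankrd37 had 15 to 33 reads per library, too few for a narrow interval. It had 1.20, 1.23 and 1.82 FPKM under DMSO and 2.40, 1.36 and 2.64 FPKM under haloperidol (interval -0.07 to 0.79).

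Known HIF targets thus stood on both sides of 0. Pdk1, Pgk1, Ldha and Eno1 rose, Egln3, Vegfa and P4ha1 fell, and Slc2a1, Bnip3, Egln1 and Kdm3a did not pass. The difference between the enzyme group and the feedback group as wholes was not tested.

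Other genes of these pathways came from textbook lists, also drawn up with earlier results of these data known. Of 29 further genes of glycolysis and glucose entry, 16 were tested, 2 rose and 3 fell, with a median log2 difference of 0.13. That made 31.2% called, beside 24.5% of all genes. Pkm, pyruvate kinase, which makes the pyruvate that Ldha uses, measured 549.0, 580.0 and 592.3 FPKM in the DMSO libraries and 647.1, 706.8 and 628.6 FPKM in those of haloperidol (log2 difference 0.20, adjusted p = 0.0353). Its groups did not overlap. Aldoc, an aldolase isoform, fell from 9.10 ± 1.21 to 2.68 ± 0.432 FPKM (log2 difference -1.46, SE 0.12, adjusted p = 0.000172). Slc2a8, an intracellular glucose transporter, rose from 5.27 ± 0.179 to 10.7 ± 1.64 FPKM (adjusted p = 0.000764). Gpd2, the mitochondrial glycerol phosphate dehydrogenase, fell from 18.4 ± 0.678 to 15.5 ± 0.0889 FPKM (adjusted p = 0.0188). Aldoc and Slc2a8 had larger log2 differences than any of the 13 enzyme genes.

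The 8 pentose phosphate pathway genes draw on glucose 6-phosphate to make NADPH. Of them 7 were tested, 2 rose and 0 fell, or 28.6% called beside 24.5% of all genes. The genes that rose were Pgls, from 40.5 ± 1.27 to 49.4 ± 2.36 FPKM (adjusted p = 0.00801), and Taldo1, from 237 ± 0.397 to 263 ± 2.87 FPKM (adjusted p = 0.0321). G6pdx, the first enzyme, was at 40.4 ± 1.62 and 44.9 ± 1.02 FPKM (adjusted p = 0.0652). Of 8 further genes of the pyruvate dehydrogenase complex, 7 were tested and 0 passed with limma, with 0 at an unadjusted p below 0.05 and 0 with voom. The smallest p-values there were those of Pdp2, Dlat and Pdpr (adjusted p = 0.23, 0.266 and 0.392). Of 11 further genes of the HIF pathway, 9 were tested and 0 passed with limma, with 2 at an unadjusted p below 0.05 and 1 with voom. Among all genes, 24.5% passed with limma. Tceb2, Rbx1 and Tceb1, parts of the ubiquitin ligase that holds VHL, had adjusted p = 0.0766, 0.122 and 0.284. Hif1an, the asparaginyl hydroxylase that blocks HIF activity, was at 4.51 ± 0.413 and 5.03 ± 0.249 FPKM.

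A further 39 genes known to rise in hypoxia gave 29 tested, of which 4 rose and 5 fell, or 31.0% called beside 24.5% of all genes, with a median log2 difference of -0.04. Mif, a cytokine, rose from 518 ± 11.3 to 740 ± 11.5 FPKM (log2 difference 0.51, SE 0.04, adjusted p = 0.000179). Ddit4, an inhibitor of mTORC1 that glucocorticoids and stress also induce, rose from 13.1 ± 1.43 to 21.1 ± 2.29 FPKM (adjusted p = 0.00258). Mt1 and Mt2, metal-binding metallothioneins, rose by 2.06 and 1.51 on the log2 scale. Bhlhe40, a transcriptional repressor, fell from 61.9 ± 3.87 to 42.3 ± 7.21 FPKM (log2 difference -0.55, adjusted p = 0.00862). The others that fell were Vldlr, a lipoprotein receptor (-0.43), Jmjd6, an oxygenase (-0.37), Siah2, a ubiquitin ligase (-0.27), and Pnrc1, a nuclear receptor coactivator (-0.24). Ndrg1, a hypoxia-induced gene of many tissues, was at 42.9 ± 1.09 and 45.1 ± 2.23 FPKM (adjusted p = 0.387).

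The LSK label was checked against 10 genes of that gate, all of which were tested. Kit was at 87.8 ± 7.38 and 81.0 ± 9.78 FPKM and Ly6a, the gene of Sca-1, at 136 ± 10.2 and 138 ± 10.5 FPKM. Markers of other cell types were summed in the same way. The summed FPKM of 11 erythroid markers ranged from 3763.7 to 4858.5 in DMSO and from 4294.1 to 5636.3 in haloperidol, with 0 of 11 called by limma, 1 at an unadjusted p below 0.05 and 1 called with voom. The sum of 10 monocyte and macrophage markers ranged from 33.0 to 36.7 and from 59.3 to 67.4 FPKM, with 1 higher and 1 lower. Cd68 was the higher one, at 16.2 ± 0.987 and 44.9 ± 3.9 FPKM, and made up most of the rise of the sum. C1qc was the lower one, at 1.42 ± 0.288 and 0.687 ± 0.0931 FPKM. Emr1 and Mrc1 were below 1 FPKM in every library. The sum of 8 megakaryocyte markers ranged from 80.1 to 87.6 and from 105.9 to 121.7 FPKM, with 2 higher. Those were Itga2b, at 18.7 ± 1.13 and 44.8 ± 4.06 FPKM, and Itgb3, while Pf4 was at 41.7 ± 5.27 and 39.5 ± 4.1 FPKM and Gp6 was below 1 FPKM. Of 6 B and plasma cell genes tested, 4 were lower, among them Ighm at 262.3 ± 18.7 and 101.7 ± 12.3 FPKM. The tested genes of this list that were not called had higher means with haloperidol, and their groups overlapped. Ms4a1 and Pax5 were below 1 FPKM in every library. Neutrophil sums ranged from 167.4 to 283.2 and from 173.8 to 307.6 FPKM, with 1 of 10 tested higher. Stromal sums, mainly Cxcl12, ranged from 13.6 to 21.2 and from 16.9 to 19.0 FPKM, with Bglap at 0, Col1a1, Col1a2, Pdgfra and Sp7 below 1 FPKM, and 0 of 2 tested called by limma (1 at an unadjusted p below 0.05 and 1 with voom). T and NK cell sums ranged from 317.2 to 337.5 and from 276.8 to 320.6 FPKM. Nearly all of that was Nkg7 (318.3 ± 11.4 and 295.7 ± 22.6 FPKM, not called), the 2 lower genes were Cd5 and Tcf7, and Cd3d, Cd3e, Cd3g, Cd8a, Klrb1c and Ncr1 were below 1 FPKM. Mast cell and basophil sums ranged from 140.4 to 144.3 and from 141.9 to 166.4 FPKM. Gata2, their largest part and also a gene of blood progenitors, was lower (99.4 ± 5.49 and 73.2 ± 5.48 FPKM), and Cpa3 and Mcpt8 were higher. Endothelial sums ranged from 88.5 to 98.4 and from 82.1 to 84.4 FPKM, mainly Egfl7, Tie1 and Pecam1, with Tie1 and Emcn lower and Cdh5 and Kdr below 1 FPKM. The sum of the 10 gate genes went from between 1204.1 and 1245.6 to between 1072.5 and 1103.3 FPKM, with 1 higher and 5 lower. The part of these shifts in the differences of the glycolysis and hypoxia genes was not tested. In bulk RNA, fewer cells of a type cannot be told apart from less RNA per cell.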

How the data were processed

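RNA of sorted LSK cells was measured in 3 DMSO and 3 haloperidol libraries made with a SMART-Seq kit and a Nextera XT kit, per the labels' protocols. Per the submitters' processing notes, the build was mm10 and the tools included HTSeq 0.6.1, TopHat2 2.1.1, bcl2fastq 2.19.1.403 and DESeq2 1.18.1. The gene annotation and how reads were counted: not given in the sources used here. FPKM values were deposited by the authors, 1 column per library, with 0 columns of other samples. Whole reads were recovered from the steps between FPKM values for 20633 of 20633 genes above 0, within 0.001 reads. The scale between libraries equalled median-of-ratios size factors. Reads per library ranged from 8523556 to 8969045, and 0 reads allows up to 0.334 to 0.352 RPM (3 counts, counting error only).

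Genes with a mean of at least 1 FPKM entered limma 3.58.1 (R 4.3.3) as log2(FPKM + 1), with a mean-variance trend, no covariate, a two-sided test and Benjamini-Hochberg adjustment over 11436 genes. On simulated reads for those genes the test found 45% of the 1.5-fold changes and 90% of the 2-fold ones, with 11 false calls, and 2 calls when no gene was changed. The simulation changed 100 genes per fold size, none of them low in reads, and gave every gene the same dispersion. In the data 24.5% of genes were called, which loosens the adjusted threshold, so these shares need not hold for the data. Of the differences reported here most are below 1.5-fold, where genes can be missed. Copies were sought with BLAST+ 2.17.0 in GENCODE M21. The members, lists and rule for named genes were chosen with earlier results of these data known. All members are reported, with values per library for called genes, the most abundant gene of each role and the feedback group, plus 3 genes of smallest p per pathway list, and Pkm, Hif1an, Ddit4 and Ndrg1. Alternatives were other pseudocounts, filters, scalings, variance models, voom on recovered reads, a replicate block and leaving out each library. One marker gene, and the sum that holds it, is not reported here. Of the genes known to rise in hypoxia, those that fell were named after their values were seen, as were Pfkm, Hk3, C1qc and the leading genes of marker lists.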

Additional observations from a re-analysis of the deposited data

How the results depend on the processing

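Of the 14 called genes, 9 passed under all 17 alternatives (Gapdh, Pgk1, Pgam1, Ldha, Ldhb, Pdk1, Egln3, Vegfa and P4ha1), and 0 changed sign. Leaving out 1 library gave 7 to 9 genes higher and 4 to 5 lower, with 5 to 6 enzymes higher. In the feedback group 3 genes were lower each time. Over all genes it gave 817 to 985 higher (817 without DMSO replicate 2, 864 without haloperidol replicate 1) and 997 to 1228 lower, against 1320 and 1487. With no filter on low values 848 genes were higher. The cause was not tested. The direction turned for 5 uncalled genes near 0, whose log2 differences with 1 library left out ranged from -0.01 to 0.04 (Hk1), -0.01 to 0.10 (Slc2a1), -0.01 to 0.09 (Arnt), -0.04 to 0.05 (Egln1) and -0.04 to 0.01 (Bnip3). They turned for Hk1 (-0.01 without DMSO replicate 1, -0.005 without haloperidol replicate 2), Slc2a1 (-0.01 without haloperidol replicate 1), Arnt (-0.01 without DMSO replicate 1), Egln1 (0.01 with upper quartile scaling, 0.01 with quantile normalization, 0.001 with sample weights, 0.05 without DMSO replicate 1, 0.004 without haloperidol replicate 1) and Bnip3 (0.02 with upper quartile scaling, 0.01 with quantile normalization, 0.01 without haloperidol replicate 1 or 2). Pfkl passed with voom on recovered reads (adjusted p = 0.0453) and without haloperidol replicate 2 (0.047). With the replicate block 1208 genes were higher and 1344 lower, and of the glycolysis and hypoxia genes 10 and 4. These included 7 enzymes higher and 3 genes of the feedback group lower. Same-numbered libraries had correlations of deviations of 0.00946, 0.055 and 0.0195, so the numbers were not taken as pairs, and DMSO replicate 1 correlated best with haloperidol replicate 3 (0.0618). Depth limits Epas1, P4ha2 and Ankrd37, which had at most 33 reads in a library.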
